A study of Caenorhabditis elegans with 9 samples.

Results

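The GLD translational control genes of Caenorhabditis elegans were followed here on whole first-stage (L1) larvae: gld-1, gld-2, gld-3, gld-4, rnp-8, cpb-3, nos-2 and nos-3. They were chosen by name, and every probe set that the platform annotation assigns to one of them is given. These 8 genes have 18 probe sets among the 22548 on the array. Of those, 17 name a single gene and 1 names nos-2 together with T02G5.11. RNA levels were compared between larvae depleted of LET-418, a Mi-2 chromatin-remodelling ATPase, larvae depleted of MEP-1, a zinc-finger protein that binds it, and control larvae. All 9 samples were wild-type N2 (Bristol) animals whose mothers were placed at the L4 stage, at 25 °C, on HT115 bacteria making double-stranded RNA, so that the larvae inherited the interference. Embryos from bleached mothers hatched without food, and the larvae then fed for 3 h on bacteria carrying the same construct. The 3 groups were gfp(RNAi), the reference, in which the targeted sequence has no worm counterpart, let-418(RNAi) and mep-1(RNAi), with 3 arrays each, numbered by batch 1 to 3, and 1 array of each group in each batch. No group carried a mutation, and the depletion of the proteins was not measured on the arrays.

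These genes act on the messenger RNAs of the germline after transcription. GLD-1 is a KH-domain protein of the STAR family that binds target messages and keeps them from being translated, and it is needed for germ cells to go through oogenesis. GLD-2 is the catalytic subunit of a cytoplasmic poly(A) polymerase that lengthens poly(A) tails and so favours translation; it binds RNA poorly by itself and works with either GLD-3, a KH protein of the Bicaudal-C family, or RNP-8, an RRM protein. GLD-4 is another cytoplasmic poly(A) polymerase. CPB-3 belongs to the CPEB family of RNA-binding proteins, and NOS-2 and NOS-3 to the Nanos family, whose members work with PUF proteins such as FBF-1. In a wild-type L1 larva the germline is a pair of primordial germ cells, and the RNA of whole larvae is largely somatic.

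Values are MAS5 signals, in arbitrary units, after every array was scaled to one trimmed mean. Levels of different probe sets were not compared as amounts of RNA. Ratios of 2 probe sets within an array and summed signals of lists, in which bright probe sets weigh most, were compared only between groups. The trimmed means before scaling ran from 209 to 436. A probe set was called when its adjusted p was under 0.05 and its change at least 2-fold, and it rose or fell only in that case. The targeted genes gave no sign of depletion at the RNA level. The let-418 probe set averaged 915 ± 98.9 on the gfp(RNAi) arrays and 1783 ± 431 on the let-418(RNAi) arrays (SD, n = 3), a log2 difference of 0.94 (adjusted p = 0.0043). The first mep-1 probe set averaged 1497 ± 79.0 on the gfp(RNAi) arrays and 1565 ± 57.5 on the mep-1(RNAi) arrays (adjusted p = 0.777), and the second differed by 0.13 on the log2 scale (adjusted p = 0.708). The knockdown groups are therefore named throughout as the labels name them. Over all probe sets, 70.4% of the calls on the let-418(RNAi) arrays and 67.3% of those on the mep-1(RNAi) arrays were higher. The second share was 52.2% on the signals without scaling, which moved the median of all probe sets on the mep-1(RNAi) arrays to -0.27 on the log2 scale from 0.02.

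Of the 8 genes, 4 were called higher in both knockdowns and none was called lower. By the brightest probe set of each gene, gld-1, gld-3, rnp-8 and cpb-3 rose on the let-418(RNAi) arrays and on the mep-1(RNAi) arrays. By the same measure gld-2 passed the test in both with a change below 2-fold, and gld-4, nos-2 and nos-3 did not pass. Counted by the brightest probe set of each gene, 4 of 8 genes were called higher in each knockdown. Of 17138 genes, 7.09% were called higher and 2.89% lower on the let-418(RNAi) arrays, and 7.24% higher and 3.38% lower on the mep-1(RNAi) arrays. Brightness was averaged over knockdown and control arrays, so a rise could favour the choice of a probe set. On the gfp(RNAi) arrays alone, gld-1 193805_at was brighter than 174247_at (means 40.9 and 35.7). It did not pass on the let-418(RNAi) arrays and was called on the mep-1(RNAi) arrays (log2 fold changes 0.79 and 1.17). Likewise gld-2 172979_at averaged 297.9 on the gfp(RNAi) arrays, against 297.8 for 182167_at, and passed in neither knockdown. Counted by probe set, 7 of 18 were called higher on the let-418(RNAi) arrays, against 6.54% of all probe sets, and 8 of 18 on the mep-1(RNAi) arrays, against 6.78%. With no limit on the fold change these counts were 8 of 18, against 9.67%, and 10 of 18, against 10.4%. Every knockdown array lay above every gfp(RNAi) array for 14 of the 18 probe sets on the let-418(RNAi) side, against 17.9% of all probe sets, and for 11 on the mep-1(RNAi) side, against 18.6%. The median log2 fold change of the 8 genes, each by its brightest probe set, was 1.06 and 1.27, against -0.03 and 0.02 over all genes tested. The 3 gfp(RNAi) arrays serve as the reference of both. Without replicate 2 of gfp(RNAi), 4 probe sets were called on the let-418(RNAi) arrays in place of 7, and with unscaled signals 3.

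**Figure D1:**
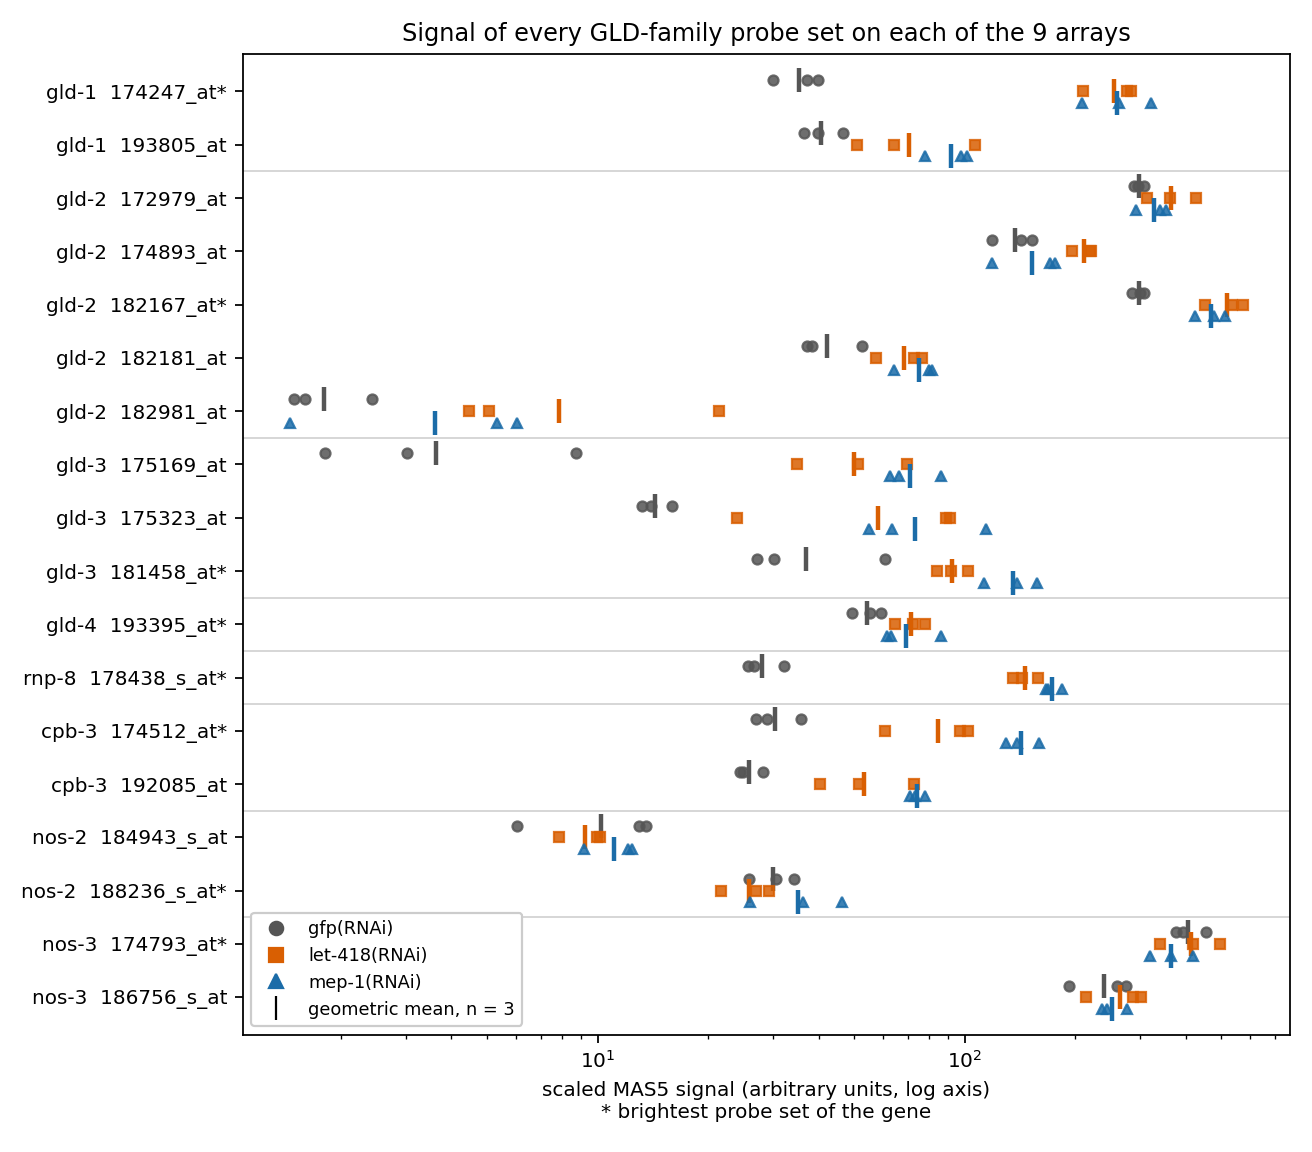
Scaled MAS5 signal (arbitrary units, log axis) of the 18 GLD-family probe sets, with 1 point per array for gfp(RNAi), let-418(RNAi) and mep-1(RNAi), and a vertical tick at the geometric mean of each group (n = 3). The gld-1 probe set 174247_at lay between 30.0 and 39.8 on the gfp(RNAi) arrays and at 208 or above on all others, whereas the groups overlapped for both nos-3 probe sets.

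The translational repressor gld-1 had the largest change of the brightest probe sets in the family, by 174247_at. That ranking depends on the knockdown arrays having entered the choice of the brightest probe set. On the gfp(RNAi) arrays alone, gld-1 193805_at was brighter (mean 40.9 against 35.7). Its log2 fold changes, 0.79 and 1.17, were below those of rnp-8 (2.38 and 2.62). The probe set 174247_at gave 30.0, 37.2 and 39.8 on the gfp(RNAi) arrays of batches 1 to 3. On the let-418(RNAi) arrays it gave 284, 277 and 209.8, and on the mep-1(RNAi) arrays 323, 208 and 263. The 6 knockdown arrays thus shared one range, far above the highest control array. The rise was 7.19-fold on the let-418(RNAi) arrays (log2 fold change 2.85 ± 0.22, SE, adjusted p = 5.96e-06) and 7.35-fold on the mep-1(RNAi) arrays (2.88 ± 0.22, adjusted p = 4.45e-06). Within batches the log2 difference ran from 2.40 to 3.24 and from 2.49 to 3.43.

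The other gld-1 probe set, 193805_at, moved less. It gave 36.4, 46.7 and 39.7 on the gfp(RNAi) arrays, 64.3, 107 and 50.8 on the let-418(RNAi) arrays and 101, 78.2 and 97.4 on the mep-1(RNAi) arrays. All knockdown arrays were again above all control arrays, with replicate 3 of let-418(RNAi) closest to them. The log2 fold change was 0.79 ± 0.30 on the let-418(RNAi) arrays (adjusted p = 0.103), which did not pass, and 1.17 ± 0.30 on the mep-1(RNAi) arrays (adjusted p = 0.0186), which was called. The call was lost without replicate 1 of gfp(RNAi) (adjusted p = 0.054) and without replicate 1 or replicate 3 of mep-1(RNAi) (adjusted p = 0.0607 and 0.0565), on unscaled signals (0.263), and when 21.1, the 25th percentile over the scaled signals, was added to each signal before the logarithm, where the change was 0.87. The log2 ratio of 174247_at to 193805_at within an array was 2.06 higher on the let-418(RNAi) arrays and 1.71 higher on the mep-1(RNAi) arrays than on the gfp(RNAi) arrays, and the groups did not overlap. The sources used here do not say which part of the gld-1 transcript each probe set reads.

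The catalytic subunit gld-2 has 5 probe sets, and none of them was called. The brightest, 182167_at, gave 308, 286 and 299.5 on the gfp(RNAi) arrays, 452, 533 and 572 on the let-418(RNAi) arrays and 423, 511 and 478 on the mep-1(RNAi) arrays. No knockdown array fell within the narrow control range. The change was 1.74-fold (0.80 ± 0.14 on the log2 scale, adjusted p = 0.00255) and 1.58-fold (0.66 ± 0.14, adjusted p = 0.00774), so that it passed the test below 2-fold in both.

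The remaining gld-2 probe sets did not give a single picture. 172979_at averaged 298 ± 9.81 on the gfp(RNAi) arrays, 367 ± 56.4 on the let-418(RNAi) arrays and 328 ± 31.9 on the mep-1(RNAi) arrays (SD, n = 3). Its log2 fold changes were 0.29 ± 0.15 and 0.14 ± 0.15 (adjusted p = 0.251 and 0.618). 174893_at gave 119, 152.8 and 143 on the gfp(RNAi) arrays, 220.2, 219 and 196 on the let-418(RNAi) arrays and 176, 119 and 171 on the mep-1(RNAi) arrays, where replicate 2 was as low as the lowest control. Its log2 fold changes were 0.62 ± 0.20 (adjusted p = 0.0547) and 0.15 ± 0.20 (adjusted p = 0.669). 182181_at changed by 0.70 ± 0.25 (adjusted p = 0.0943) and 0.83 ± 0.25 (adjusted p = 0.0459) and so passed the test on the mep-1(RNAi) arrays, while the direct comparison of the knockdowns gave an adjusted p of 0.983. 182981_at was near the bottom of the scale, with 1.60, 2.43 and 1.49 on the gfp(RNAi) arrays, 4.46, 5.06 and 21.4 on the let-418(RNAi) arrays and 1.46, 5.34 and 6.02 on the mep-1(RNAi) arrays. Its log2 fold change of 2.13 on the let-418(RNAi) arrays rested on replicate 3, did not pass (adjusted p = 0.108), and was 0.41 with 21.1 added to each signal. Of the 5 probe sets, 1 passed on the let-418(RNAi) arrays and 2 on the mep-1(RNAi) arrays.

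The other poly(A) polymerase gene of the family, gld-4, has 1 probe set, 193395_at. It gave 55.2, 59.0 and 49.2 on the gfp(RNAi) arrays, 64.7, 78.1 and 72.4 on the let-418(RNAi) arrays and 61.5, 86.1 and 63.1 on the mep-1(RNAi) arrays. Each knockdown array was above each control array by a small margin. The log2 fold changes of 0.40 ± 0.24 and 0.35 ± 0.24 did not pass (adjusted p = 0.316 and 0.364), and their 95% confidence intervals ran from -0.12 to 0.92 and from -0.17 to 0.87, which leaves out a 2-fold rise in either knockdown.

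The genes of both GLD-2 partners rose. The RRM protein gene rnp-8 gave 32.3, 25.7 and 26.6 on the gfp(RNAi) arrays with its probe set 178438_s_at, 136, 143 and 159 on the let-418(RNAi) arrays and 169, 184 and 167 on the mep-1(RNAi) arrays. The replicates of each group were close together, and the groups far apart. The rise was 5.19-fold (2.38 ± 0.20 on the log2 scale, adjusted p = 1.01e-05) and 6.16-fold (2.62 ± 0.20, adjusted p = 4.02e-06), with the log2 differences within batches at 2.07 to 2.58 and 2.38 to 2.84. With 21.1 added to each signal before the logarithm these changes were 1.76 and 1.98, still called.

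The Bicaudal-C gene gld-3 has 3 probe sets, all called higher in both knockdowns, but by different amounts. The brightest, 181458_at, gave 60.7, 27.2 and 30.3 on the gfp(RNAi) arrays, 83.8, 92.0 and 102 on the let-418(RNAi) arrays and 113, 157 and 139 on the mep-1(RNAi) arrays. Replicate 1 was the high one among the controls, and still lay below all 6 knockdown arrays. The log2 fold changes were 1.33 ± 0.31 (adjusted p = 0.0124) and 1.88 ± 0.31 (adjusted p = 0.00136). 175323_at gave 13.2, 14.0 and 15.9, then 89.2, 91.4 and 23.96, then 114, 54.7 and 63.2 on the arrays of the 3 groups in the same order. Replicate 3 of let-418(RNAi) stood apart there, between the controls and the other knockdown arrays. Its log2 fold changes were 2.02 ± 0.50 (adjusted p = 0.0178) and 2.35 ± 0.50 (adjusted p = 0.00706). The controls were below 20.3, the 25th percentile of all control signals, and with 21.1 added before the logarithm the changes were 1.21 and 1.43, still called. 175169_at gave 8.73, 1.81 and 3.03 on the gfp(RNAi) arrays, where it was among the dimmest probe sets, 51.3, 69.8 and 34.9 on the let-418(RNAi) arrays and 86.4, 62.4 and 66.3 on the mep-1(RNAi) arrays. The fitted changes of 3.78 and 4.29 were the largest of the family, and fell to 1.49 and 1.85 with the offset of 21.1, still called, and were 4.42 and 4.92 without replicate 1 of gfp(RNAi). On the let-418(RNAi) arrays the calls of 181458_at and 175323_at were lost without replicate 2 of gfp(RNAi) (adjusted p = 0.0507 and 0.0514), and that of 175323_at also without replicate 1 or 2 of let-418(RNAi) (adjusted p = 0.0783 and 0.0777). Both calls were also lost there on unscaled signals (adjusted p = 0.0758 and 0.0611) and by the methods' t-test (the comparison of 2 groups named in the study's methods, run here with equal variances and the 2-fold limit) before and after adjustment (adjusted p = 0.134 and 0.169), and the change of 181458_at was 0.95, below 2-fold, with 21.1 added. After adjustment the methods' t-test also lost 181458_at on the mep-1(RNAi) arrays (adjusted p = 0.0825) and 175169_at on both (0.0656 and 0.0519).

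Since GLD-3 and RNP-8 each pair with GLD-2, the change of their signals relative to gld-2 was taken within each array. These pairs, like the others compared in this way, were chosen after their values were seen. The log2 ratio of rnp-8 to gld-2 was 1.58 higher on the let-418(RNAi) arrays than on the gfp(RNAi) arrays, with 1.52 to 1.64 within batches, and 1.97 higher on the mep-1(RNAi) arrays, with 1.93 to 2.00. The ratio of gld-3 to gld-2 was 0.53 higher on the let-418(RNAi) arrays, where the groups overlapped (exact permutation test, two-sided, p = 0.4), and 1.22 higher on the mep-1(RNAi) arrays, where they did not. Groups that did not overlap had p = 0.1 in this exact permutation test, the smallest that 3 arrays against 3 can give, and 0.171 after Benjamini-Hochberg adjustment over the 24 such comparisons. Each gene was taken here by its brightest probe set, 181458_at for gld-3 and 182167_at for gld-2. By these, the partner signals relative to the catalytic subunit were higher than on every control array, except for gld-3 on the let-418(RNAi) arrays. The gld-3 probe sets 175169_at and 175323_at, with larger log2 fold changes on the let-418(RNAi) arrays (3.78 and 2.02), were not set against gld-2.

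**Figure D2:**
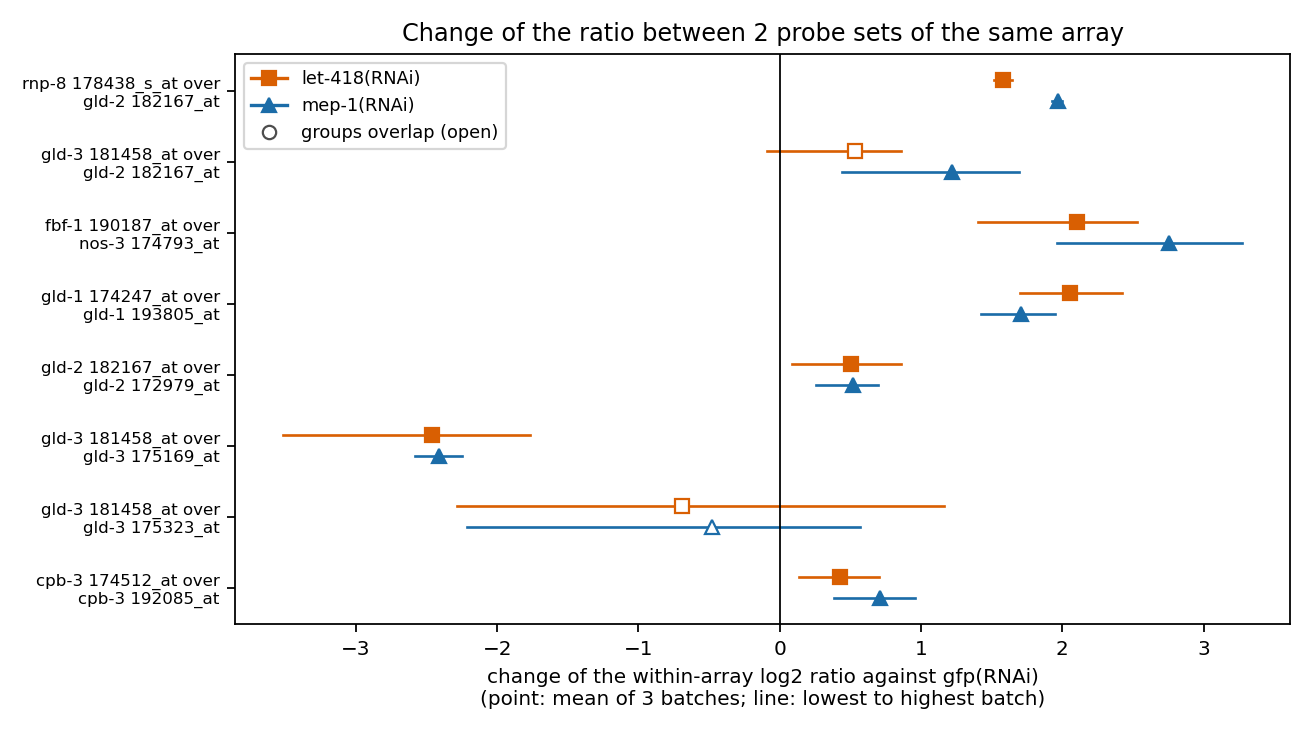
Change of the within-array log2 ratio of 2 probe sets against gfp(RNAi) (x axis, log2 units), with the mean of 3 batches as a point, the lowest to highest batch as a line, and open symbols where knockdown and control arrays overlapped. The ratio of rnp-8 to gld-2 had the shortest lines, at 1.58 on the let-418(RNAi) and 1.97 on the mep-1(RNAi) arrays. The ratio of gld-3 181458_at to 175169_at was lower by -2.46 and -2.41, without overlap, while its ratio to 175323_at overlapped the controls in both knockdowns.

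The CPEB gene cpb-3 rose with both of its probe sets. 174512_at gave 28.9, 35.9 and 26.9 on the gfp(RNAi) arrays, 97.2, 102 and 60.5 on the let-418(RNAi) arrays and 159, 129.9 and 138 on the mep-1(RNAi) arrays. The mep-1(RNAi) arrays were all above the let-418(RNAi) arrays, and replicate 3 of let-418(RNAi) was the lowest knockdown array. The log2 fold changes were 1.47 ± 0.26 (adjusted p = 0.00256) and 2.23 ± 0.26 (adjusted p = 1.27e-04). The let-418(RNAi) call was lost on unscaled signals (adjusted p = 0.0605) and by the methods' t-test after adjustment (adjusted p = 0.0607). 192085_at gave 25.0, 28.2 and 24.4 on the gfp(RNAi) arrays, 51.6, 72.8 and 40.4 on the let-418(RNAi) arrays and 70.9, 77.9 and 73.2 on the mep-1(RNAi) arrays. It was called with 1.05 ± 0.28 (adjusted p = 0.0271) and 1.52 ± 0.28 (adjusted p = 0.00321). The first of these calls was at the limit of 2-fold and was lost in 11 of the 19 alternatives, among them the exclusion of any 1 gfp(RNAi) array (adjusted p = 0.0529 to 0.0662) and of replicate 1 or 2 of let-418(RNAi) (0.0699 and 0.11). The mep-1(RNAi) call was lost on unscaled signals (adjusted p = 0.103).

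The Nanos genes of the family did not change detectably. nos-3 was bright on every array, with 393, 453 and 377 for 174793_at on the gfp(RNAi) arrays, 419, 495 and 339.9 on the let-418(RNAi) arrays and 418.1, 319.6 and 364 on the mep-1(RNAi) arrays. The groups overlapped. The log2 fold changes of 0.02 ± 0.17 and -0.15 ± 0.17 had 95% confidence intervals of -0.35 to 0.40 and -0.53 to 0.22, so that a 2-fold change lay outside both. The second probe set, 186756_s_at, changed by 0.15 ± 0.19 and 0.08 ± 0.19 (adjusted p = 0.681 and 0.846), and its intervals of -0.27 to 0.57 and -0.34 to 0.50 also left out a 2-fold change.

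nos-2, whose message is handed from the mother to the germline precursors, was dim. Its own probe set, 188236_s_at, gave 34.3, 30.6 and 25.8 on the gfp(RNAi) arrays, 29.3, 27.05 and 21.7 on the let-418(RNAi) arrays and 46.3, 26.0 and 36.2 on the mep-1(RNAi) arrays, with overlap between all groups. The log2 fold changes were -0.22 ± 0.33 (adjusted p = 0.736) and 0.23 ± 0.33 (adjusted p = 0.713), with intervals of -0.95 to 0.51 and -0.50 to 0.96. The probe set shared with T02G5.11, 184943_s_at, lay between 6.03 and 13.5 on all arrays and changed by -0.14 ± 0.48 and 0.12 ± 0.48, with intervals of -1.19 to 0.91 and -0.93 to 1.18. The 25th percentile of all signals on the control arrays was 20.3. The intervals of the shared probe set include a 2-fold rise or fall or come close to it. The third Nanos gene, nos-1, belongs to the list of neighbouring regulators below and is named here after its values were seen. It gave 40.4, 48.0 and 14.6 on the gfp(RNAi) arrays, 106, 112 and 134 on the let-418(RNAi) arrays and 118, 130.0 and 123 on the mep-1(RNAi) arrays, and was called in both at 1.93 and 2.02 on the log2 scale, with an adjusted p of 0.00469 and 0.00341.

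**Figure D3:**
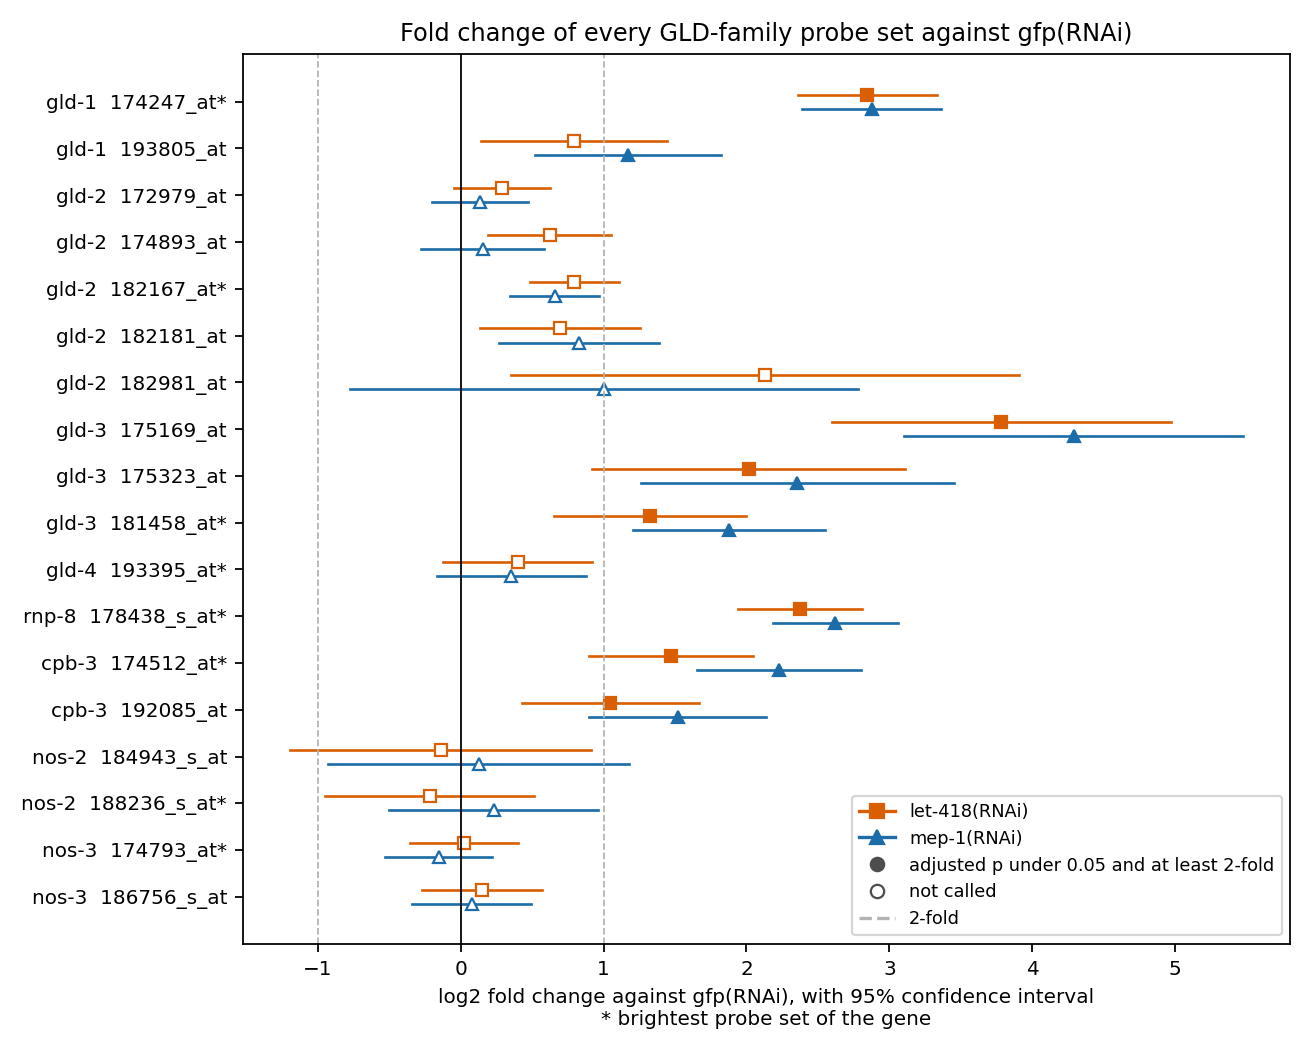
Log2 fold change against gfp(RNAi) of the 18 probe sets (x axis, log2 units) on the arrays of let-418(RNAi) and of mep-1(RNAi), with the 95% confidence interval of the limma fit, filled where called. The probe sets of gld-1, gld-3, rnp-8 and cpb-3 lie to the right, from 0.79 to 4.29, and those of nos-3 lie at 0, from -0.15 to 0.15. Those of gld-2, none of them called, lie from 0.14 to 2.13 and so overlap the first range.

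The knockdowns were then compared with each other. None of the 18 probe sets was called, with adjusted p from 0.802 to 0.995, where 0.00443% of all probe sets, 1 probe set, was called in either direction. At an unadjusted p under 0.05 there were 2 of 18, and 1264 of 22548 over the array. One of these was cpb-3 174512_at, higher on the mep-1(RNAi) arrays by 0.75 ± 0.26 on the log2 scale (95% confidence interval 0.18 to 1.33, adjusted p = 0.802), in 3 of 3 batches. The other was gld-2 174893_at, lower on the mep-1(RNAi) arrays with a log2 difference of -0.47 ± 0.20 (-0.90 to -0.04, adjusted p = 0.852), in all 3 batches. For gld-1 174247_at the difference was 0.03 ± 0.22 (-0.45 to 0.52), and for rnp-8 it was 0.25 ± 0.20 (-0.19 to 0.68), so that a 2-fold difference between the knockdowns lay outside the interval of both. For gld-3 181458_at it was 0.55 ± 0.31 (-0.12 to 1.22), which does not leave out 2-fold.

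Genes that work with this family were examined as 4 lists, each gene by its brightest probe set. Among FBF proteins, sex-determination and germ cell fate regulators around GLD, 15 of 17 names were measured. In this list 8 were called higher on the let-418(RNAi) arrays and 8 on the mep-1(RNAi) arrays, 7 in both, and none lower, with medians of 1.11 and 1.31 on the log2 scale. The strongest on the let-418(RNAi) arrays was glp-1, the germline Notch receptor, with 30.2, 28.2 and 17.4 on the gfp(RNAi) arrays, 139, 195 and 195 on the let-418(RNAi) arrays and 180.5, 251 and 236 on the mep-1(RNAi) arrays. Its log2 fold changes were 2.82 and 3.16 (adjusted p = 2.41e-05 and 8.57e-06). puf-8, a Pumilio-family gene, rose by 2.29 and 2.74, and fog-2, which encodes the F-box partner of GLD-1 on tra-2 messages, by 2.19 and 2.11. All 3 had knockdown arrays well above the control arrays.

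fbf-1, the PUF gene whose product binds both gld-1 messages and NOS-3, gave 47.1, 22.5 and 23.5 on the gfp(RNAi) arrays, 133, 142 and 111 on the let-418(RNAi) arrays and 195, 154 and 184 on the mep-1(RNAi) arrays. Its log2 fold changes were 2.13 and 2.60 (with an adjusted p of 4.02e-04 and 8.53e-05), and its log2 ratio to nos-3 within an array was 2.10 and 2.75 higher than on the control arrays, without overlap. The 7 genes of the list that were not called on the let-418(RNAi) arrays ranged from -0.29 for sygl-1 to 0.94 for fog-3.

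Of 13 messages known as GLD-1 targets, 5 were called higher in each knockdown and none lower, with medians of 0.23 and 0.66. glp-1 is one of them and belongs to the preceding list as well. oma-1 and oma-2, zinc-finger genes of the oocyte, rose by 2.65 and 1.73 on the let-418(RNAi) arrays and by 2.89 and 1.90 on the mep-1(RNAi) arrays. The oma-1 controls, 6.37, 6.72 and 17.8, were all below the 25th percentile of the control signals, so that the size of its change rests on dim signals. rme-2, the yolk receptor gene, rose by 1.56 and 1.84. The fifth called target was cep-1, the p53 homologue, at 1.27 and 1.45. The remaining 8 targets did not pass and ranged from -0.50 (cye-1) to 0.57 (puf-5) on the let-418(RNAi) arrays, with tra-2, the sex-determination target, at -0.10 and 0.10.

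The general machinery of the poly(A) tail moved little. Of 11 measured deadenylase genes of the CCR4-NOT, PAN and PARN classes, from 14 names some of which are synonyms, 1 was called higher in each knockdown and none lower, with medians of -0.09 and 0.00. This was parn-1, a poly(A)-specific ribonuclease gene, with 48.1, 41.7 and 77.5 on the gfp(RNAi) arrays, 133, 150.0 and 122 on the let-418(RNAi) arrays and 119, 149 and 224 on the mep-1(RNAi) arrays. Its changes on the log2 scale, 1.32 and 1.56 with an adjusted p of 0.00915 and 0.00314, were not called on the unscaled signals. Of 8 measured other poly(A) and poly(U) polymerase and poly(A)-binding genes, from 11 names, none was called in either knockdown, with medians of -0.02 and -0.03. They included pap-1, the canonical nuclear poly(A) polymerase gene, at -0.02 and -0.11, and pab-1, the cytoplasmic poly(A)-binding protein gene, at -0.01 and 0.04. Counts of list genes are to be read against the 7.09% and 7.24% of all genes called higher.

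**Figure D4:**
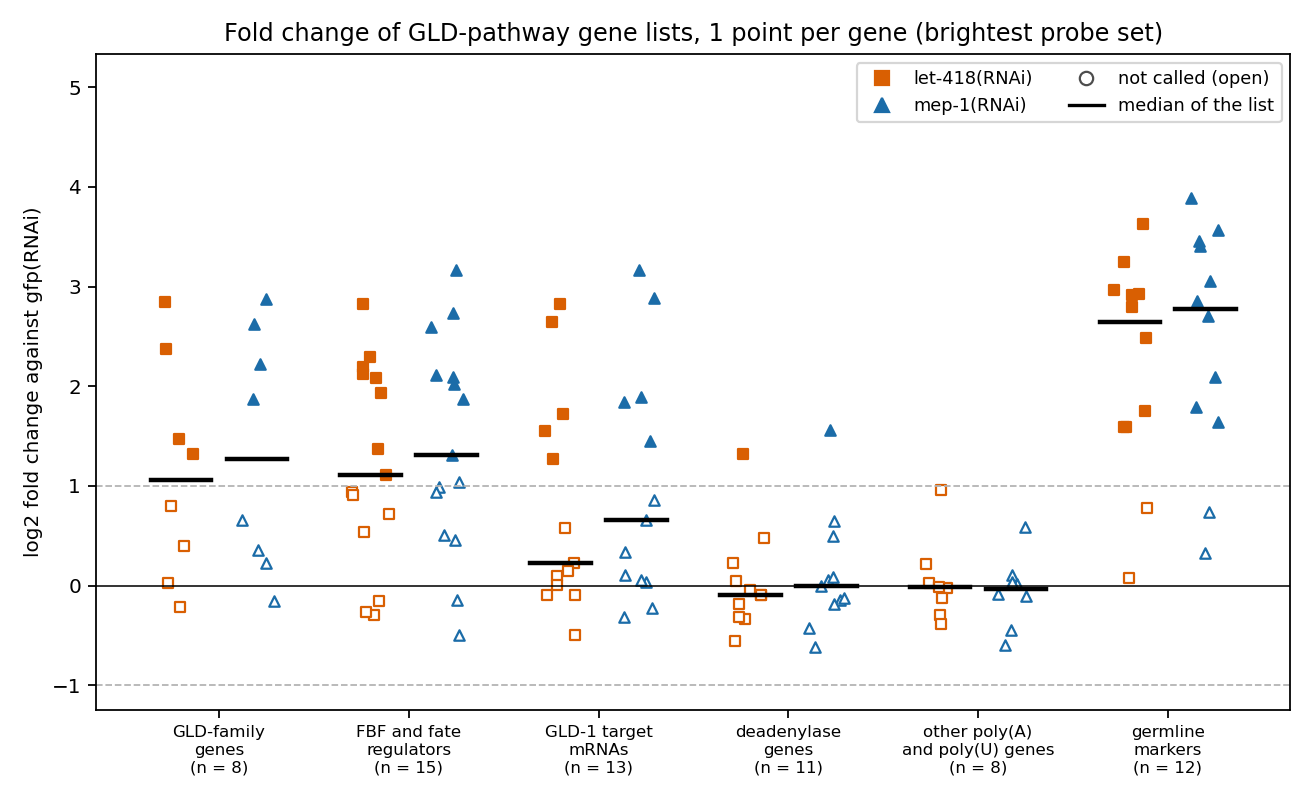
Log2 fold change against gfp(RNAi) (y axis, log2 units), 1 point per gene by its brightest probe set, for the GLD family, 4 lists of related genes and 12 germline markers; filled points were called and black bars are list medians. The medians were 1.06 and 1.27 for the GLD family, 0.23 and 0.66 for the GLD-1 targets, -0.09 and 0.00 for the deadenylase genes, -0.02 and -0.03 for the other poly(A) genes, and 2.64 and 2.78 for the germline markers.

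Among the lists of cell type markers, that of the germline moved with the family, and the others did so in part or not at all. Of 12 germline markers, 10 were called higher in each knockdown, with glh-4 and pie-1 as the exceptions, and their median log2 fold changes were 2.64 and 2.78. Their summed signal was 1298 to 1453 on the gfp(RNAi) arrays, 8917 to 11373 on the let-418(RNAi) arrays and 11883 to 13626 on the mep-1(RNAi) arrays. Of 12 oocyte and embryo markers, 5 were called higher in each, among them oma-1 and oma-2, which also count among the called GLD-1 targets. The sum of the 12 rose from between 558 and 666 to between 1087 and 1329 and between 1416 and 1671. None of 10 adult yolk, sperm and major sperm protein markers was called, and their sum was 354 to 464, 301 to 429.6 and 312 to 414 in the same order. In whole larvae, more or fewer cells of a type and more or less RNA per cell cannot be told apart, and the part of germ cell number in the rise of the GLD family was not tested.

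Of the somatic markers, none of 5 body wall muscle markers and none of 5 hypodermal markers was called in either knockdown. Below 2-fold, the hypodermal marker elt-3 passed the test in the higher direction in both (0.52 and 0.62, adjusted p = 0.0285 and 0.0113). The muscle marker myo-3 passed in the lower direction on the mep-1(RNAi) arrays (-0.57, adjusted p = 0.0494). The summed signal of the hypodermal list was 5487 to 14844 on the gfp(RNAi) arrays, lowest in replicate 3, 17598 to 22078 on the let-418(RNAi) arrays and 14156 to 21657 on the mep-1(RNAi) arrays. Without replicate 3 of gfp(RNAi), 6 GLD-family probe sets were called on the let-418(RNAi) arrays and 8 on the mep-1(RNAi) arrays. Of 5 intestinal markers, 1 was called higher in each knockdown and none lower, with medians of -0.50 and -0.22. The one called was elt-2, a GATA factor gene, which rose by 1.25 and 1.39. ges-1, a gut esterase gene, and vha-6, an intestinal proton pump gene, passed the test below 2-fold in the lower direction, at -0.67 and -0.82 (adjusted p = 0.0203 and 0.00623) and at -0.96 and -0.80 (adjusted p = 0.00424 and 0.0115), and act-5 on the let-418(RNAi) arrays at -0.50 (adjusted p = 0.0416). Of 6 neuronal markers, rab-3, a synaptic vesicle GTPase gene, was called lower on the mep-1(RNAi) arrays (log2 fold change -1.12). It passed the test below 2-fold on the let-418(RNAi) arrays (-0.88, adjusted p = 0.0179). Of the 3 markers of the somatic gonad, ehn-3 was called lower in both (-2.80 and -2.38), while hnd-1 was dim on all arrays. The third, lag-2, which encodes a ligand of GLP-1, was called lower on the mep-1(RNAi) arrays (-1.37). It passed below 2-fold on the let-418(RNAi) arrays (-0.88, adjusted p = 0.0328). For rab-3 and lag-2 the direct comparison of the knockdowns gave an adjusted p of 0.950 and 0.884. ehn-3 was dim throughout, with 21.05, 26.4 and 9.67 on the gfp(RNAi) arrays, 1.78, 2.56 and 3.44 on the let-418(RNAi) arrays and 4.55, 4.38 and 1.91 on the mep-1(RNAi) arrays, so that the size of its change rests on dim signals. Their part in the results on the GLD family was not tested.

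The genes whose log2 signals followed each member most closely over the 9 arrays were taken from the 20766 probe sets that name 1 gene. Since the arrays fall into the same 3 groups, a gene that differs between groups like the member has a high correlation. For gld-1 these were mrt-1 (Pearson r = 0.995), lipl-1 (0.994) and D2030.7 (0.994). For rnp-8 they were set-31 (0.999), prg-1 (0.998), which encodes the germline Piwi protein, and fubl-4 (0.997). For gld-3 they were F33E11.2 (0.981), aldo-1 (0.978) and rab-6.1 (0.974), and for cpb-3 sri-11 (0.991), F44E2.10 (0.988) and pqn-52 (0.983). Their amplitudes differed from those of the members, since aldo-1 changed by 0.27 and 0.39 on the log2 scale. For gld-2 the closest were ptr-23 (0.992), chtb-3 (0.988) and unc-4 (0.984), and for gld-4 T03D8.6 (0.965), nra-3 (0.952) and nhr-130 (0.948). For nos-2 they were phyh-1 (0.914), rpl-42 (0.897) and F20D6.6 (0.890), and for nos-3 daf-2 (0.949), F53C3.6 (0.944) and C15C8.6 (0.940).

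The members lie on chromosome I (gld-1, gld-2, gld-4, rnp-8 and cpb-3) and chromosome II (gld-3, nos-2 and nos-3). Of their 16 nearest protein-coding neighbours in the gene order of RefSeq, 13 were measured. On the let-418(RNAi) arrays 1 neighbour was called higher and none lower, beside 7.09% and 2.89% of all genes, and on the mep-1(RNAi) arrays 2 were higher and none lower, beside 7.24% and 3.38%. The one called in both was glh-3, a germline helicase gene next to cpb-3, at 1.69 and 1.93 on the log2 scale, with an adjusted p of 0.00174 and 0.000667. The other was him-14, a meiotic recombination gene next to nos-2, with 2.28 on the mep-1(RNAi) arrays (adjusted p = 0.0347) and 1.93 on the let-418(RNAi) arrays, which did not pass (adjusted p = 0.0723). The neighbours of gld-1, gld-3 and rnp-8 that were measured, T23G11.4, npr-31, Y48G1A.1 and icpp-55, were not called, and ranged from -0.61 to 0.55 on the let-418(RNAi) arrays and from -0.74 to 0.54 on the mep-1(RNAi) arrays. Below 2-fold, T23G11.4, next to gld-1, passed the test in both (0.55 and 0.54), as did rnt-1, next to cpb-3 (0.78 and 0.90). kars-1, next to nos-2, passed in the lower direction on the let-418(RNAi) arrays (-0.76).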

How the data were processed

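Total RNA of whole L1 larvae was labelled and hybridised to 9 Affymetrix C. elegans genome arrays, 3 biological replicates in each of 3 RNAi groups. The intensity values of the deposited table are MAS5 signals, which the authors summarised per probe set and, per their methods, scaled to a common trimmed mean. The deposited trimmed means differ, so every array was scaled again here to their geometric mean (2% trimmed at each end, target 324) before log2 was taken, with no offset. All 9 columns were matched to a sample. Precision is limited by the number of arrays, 3 per group.

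Group means were fitted on all 22548 probe sets and 9 arrays with limma 3.58.1 in R 4.3.3 (moderated test with intensity trend, two-sided, Benjamini-Hochberg over all probe sets). Calls required an adjusted p under 0.05 together with a 2-fold difference or more. A gene was counted by its brightest probe set that names no other gene. Brightness was the mean log2 signal over all 9 arrays, so the knockdown arrays took part in the choice. Tables and figures were made with Python 3.11.15, and the fit was tested on simulated data. No further quality filter was applied.

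Gene names came from the platform annotation, with 20766 probe sets naming 1 gene, 887 several and 895 none. Every probe set of the 8 genes is given. From the other lists, up to 4 called genes with the largest change on the let-418(RNAi) arrays are named, and for each member the 3 genes of highest correlation. nos-1, fog-3, sygl-1, tra-2, cye-1, puf-5, cep-1, pap-1, pab-1, glh-4, pie-1, hnd-1, ges-1, vha-6, act-5, elt-3, myo-3, rnt-1, kars-1 and the pairs of genes whose ratio is given were named after their values were seen. The members and lists were chosen with earlier results of these data known.

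A batch number in the labels of every sample pairs 1 array of each group. The deviations from the group means correlated weakly between arrays of the same batch (r from -0.03 to 0.10 over 9 pairs) and of different batches (-0.14 to 0.10 over 18 pairs), and the batch entered as a replicate block in an alternative fit only.

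The alternatives were quantile normalization, unscaled signals, an offset of 21.1 before log2, omission of the 5637 dimmest probe sets, no intensity trend, the 6 arrays of a comparison alone, the replicate block, no limit on the fold change, the methods' t-test (p of at most 0.01 and 2-fold, before and after adjustment), averaging over the probe sets of a gene, and the omission of each array.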

Additional observations from a re-analysis of the deposited data

How the results depend on the processing

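On the mep-1(RNAi) arrays, 8 probe sets and 4 genes of the family were called higher, and the counts stayed within 1.5 times of these in every alternative. On the let-418(RNAi) arrays, the 7 probe sets became 3 on unscaled signals, 4 by the methods' t-test before adjustment and 2 after it, and the 4 genes became 2 on unscaled signals and 2 by the methods' t-test after adjustment. Leaving out 1 array at a time gave 4 to 7 probe sets and 3 to 4 genes on the let-418(RNAi) arrays, 7 to 8 and 4 on the mep-1(RNAi) arrays, and 0 between the knockdowns. The lowest count, 4, came without replicate 2 of gfp(RNAi). With the replicate block the counts were 7 and 8 probe sets and 4 genes in each, and no call of the family or of the lists changed. parn-1, the 1 deadenylase gene called, was not called on unscaled signals, which gave 0 in both knockdowns. The causes were not tested.

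Direction turned for probe sets that were not called in any fit. On unscaled signals the log2 fold change was -0.046 for nos-3 174793_at on the let-418(RNAi) arrays, and on the mep-1(RNAi) arrays -0.15 for gld-2 172979_at, -0.13 for gld-2 174893_at, -0.16 and -0.056 for nos-2 184943_s_at and 188236_s_at, and -0.21 for nos-3 186756_s_at, where the median of all probe sets was -0.27. With quantile normalization it was -0.023 for nos-3 174793_at on the let-418(RNAi) arrays, and -0.021 for nos-2 184943_s_at and -0.035 for nos-3 186756_s_at on the mep-1(RNAi) arrays. Leaving out 1 array turned nos-2 184943_s_at (-0.52 to 0.065 on the let-418(RNAi) arrays, 0.036 and 0.065 without replicate 1 and replicate 3 of gfp(RNAi), and -0.26 to 0.33 on the mep-1(RNAi) arrays), nos-3 174793_at (-0.11 to 0.17 on the let-418(RNAi) arrays, -0.030 without replicate 3 of gfp(RNAi)) and nos-3 186756_s_at (-0.011 to 0.30 on the let-418(RNAi) arrays, and -0.083 to 0.18 on the mep-1(RNAi) arrays).

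Over the array, 1475 probe sets were higher and 621 lower on the let-418(RNAi) arrays, and 1529 and 744 on the mep-1(RNAi) arrays. The methods' t-test after adjustment gave 851 and 351, and 757 and 257, and before adjustment 456 lower on the mep-1(RNAi) arrays. With no limit on the fold change there were 1296 lower on the let-418(RNAi) arrays and 2346 higher and 1463 lower on the mep-1(RNAi) arrays, and unscaled signals gave 878 higher there. Between the knockdowns the 1 call varied from 0 to 83 over the alternatives.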
